A study of Xenopus tropicalis with 31 samples.

Results

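Proneural and oligodendrocyte genes of the basic helix-loop-helix (bHLH) family were followed through their accessible chromatin in the regenerating tail of Xenopus tropicalis tadpoles. The genes are neurog1, neurog2, neurog3, neurod1, neurod4, atoh1, ptf1a, olig2 and olig3, and every ATAC-Seq window whose nearest annotated gene is one of these 9 was taken. This gave 66 of the 124349 windows counted in the study, and all 9 genes had at least 2 windows. All 66 passed the filter of at least 1 CPM (the count of a window scaled to the total of its library) in at least 2 samples. The 66 were chosen by name and nearest gene, not by their values, though the 9 genes were chosen with earlier results of these data known.

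Proneural bHLH proteins bind E-box motifs in DNA as dimers with ubiquitous E proteins and push dividing neural progenitors toward a neuronal fate. Neurogenins act early in this cascade and NeuroD factors act later, while Atoh1 and Ptf1a set the identity of dorsal interneurons in the mouse spinal cord. Olig2 marks the ventral progenitors that give motor neurons and then oligodendrocytes, and Olig3 marks dorsal progenitors, both as known from the mouse.

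ATAC-Seq, in which a transposase cuts and tags open chromatin, was run on cells of tails amputated at NF stage 41. Cells were either the GFP+ fraction obtained by fluorescence sorting (pax6) or cells sorted without a GFP gate (all-tissue). They came from uninjured tails and from tails at 0, 6, 24 and 72 hours post amputation (hpa). By the paper, uninjured samples are the cut tail tips, and the others are regenerating tissue at the end of the tail. Contrasts with uninjured samples thus also differ in the piece of tissue and the age of the tadpoles, and these cannot be told apart. By the labels every sample, all-tissue ones included, carries 3 reporters: pax6:GFP, in which a pax6 promoter drives GFP, with cryga:RFP for the lens and actc1:RFP for muscle. The column names of the count table instead mark the all-tissue libraries WT, and which of the 2 holds was not tested. The 13 pax6 samples comprised 2 uninjured, 2 at 0hpa and 3 each at 6, 24 and 72hpa, and the 14 all-tissue samples comprised 3 per timepoint except 2 at 0hpa. The labels do not say whether replicates came from separate clutches or days, so p-values measure the spread between these samples, which may be technical. Each library pools cells of several tails, the GFP+ gate holds whatever cells the reporter marks, and in such bulk samples fewer cells with an open window and less opening per cell cannot be told apart.

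Total counts ranged from 3069659 to 12130125 in the pax6 samples and from 4401013 to 13256076 in the all-tissue samples. Replicate 3 of pax6 72hpa stood apart with 174 windows without a count, against 3 to 33 in the other 26 samples, and none of the 66 windows was empty in any sample. Neural markers gave 1 called window of 75 for progenitors, 4941 bp upstream of pax6, at 9.12 ± 2.03 CPM in pax6 (SD, n = 13) and 3.16 ± 0.765 CPM in all-tissue (SD, n = 14). The median log2 fold change of those 75 was 0.02. Other progenitor windows had an unadjusted p under 0.05 in edgeR without being called. Of these, windows of the genes pax6 (0.53 and 0.33), prom1 (0.47), notch1 (0.29 and 0.21) and nes (0.20) were higher in the pax6 samples. Windows of notch1 (-0.23), nes (-0.18) and sox2 (-0.27) were lower. At neuron markers 1 of 40 windows was called, 1712 bp upstream of elavl3 and higher in pax6, with a median of 0.04. That call held in 8 of the 27 fits that left out a sample. Without being called, a snap25 window was lower in pax6 (-0.17). Of 18 windows at skeletal muscle markers 1 was called, that over the start site of actc1, a muscle promoter also present in the transgene, at 8.81 ± 2.16 and 3.49 ± 0.905 CPM (SD, n = 13 and 14). A pax6 promoter is in the transgene as well, and the part of transgene copies in the called pax6 and actc1 windows was not tested. The median log2 fold change of the 18 muscle windows was 0.00. Without being called, windows of tnnc2 (-0.42) and myod1 (-0.27) were lower in pax6 and a ckm window was higher (0.33). These shares stand beside 1.52% of all windows called in that comparison, 0.639% higher and 0.885% lower in pax6. Of 38 windows at epidermis markers, 3 were called lower in pax6, with a median log2 fold change of -0.02 over the 38. The summed list spanned 190 to 219 CPM in pax6 and 206 to 232 CPM in all-tissue. No notochord window (of 20) or blood and vessel window (of 31) was called. The part of these markers in the values below was not tested.

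The 66 windows were spread unevenly over the genes. Each is a 400 bp window centred on a summit of the merged alignments in genome version 9.0, and distances are given from the nearest window edge to the transcription start site (TSS). The ventral gene olig2 had 16 windows and atoh1 had 12, followed by olig3 with 8, neurog2 with 7, neurog1 and ptf1a with 6 each, neurod1 with 5, neurod4 with 4 and neurog3 with 2. The median annotated gene had 3. Only 8 of the 66 lay within 500 bp of a TSS or over it, a share of 12.1% against 9.18% of all 117398 annotated windows, and 18 lay beyond 50000 bp. For neurog3, neurod1 and olig2 no window fell within 500 bp, and the nearest were 2063 bp downstream, 772 bp upstream and 671 bp downstream.

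Most windows of these genes were less accessible than the median window. Their median level over the 27 samples was 3.96 CPM against 4.84 CPM over all windows tested, and 41 of the 66 lay below that overall median. At the other end, 3 windows lay above the 90th percentile, and these belonged to olig2 and ptf1a. The highest was the olig2 window 10174 bp downstream (chr2:10815701-10816100) at 43.5 CPM, rank 1991 of 124342. The olig2 window 10012 bp upstream (chr2:10836288-10836687) followed at 18.6 CPM and the ptf1a window 13241 bp downstream (chr6:18172134-18172533) at 15.8 CPM. The 5 windows with the lowest levels, between 2.49 and 2.78 CPM, belonged to atoh1, olig2 and neurog2.

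**Figure D1:**
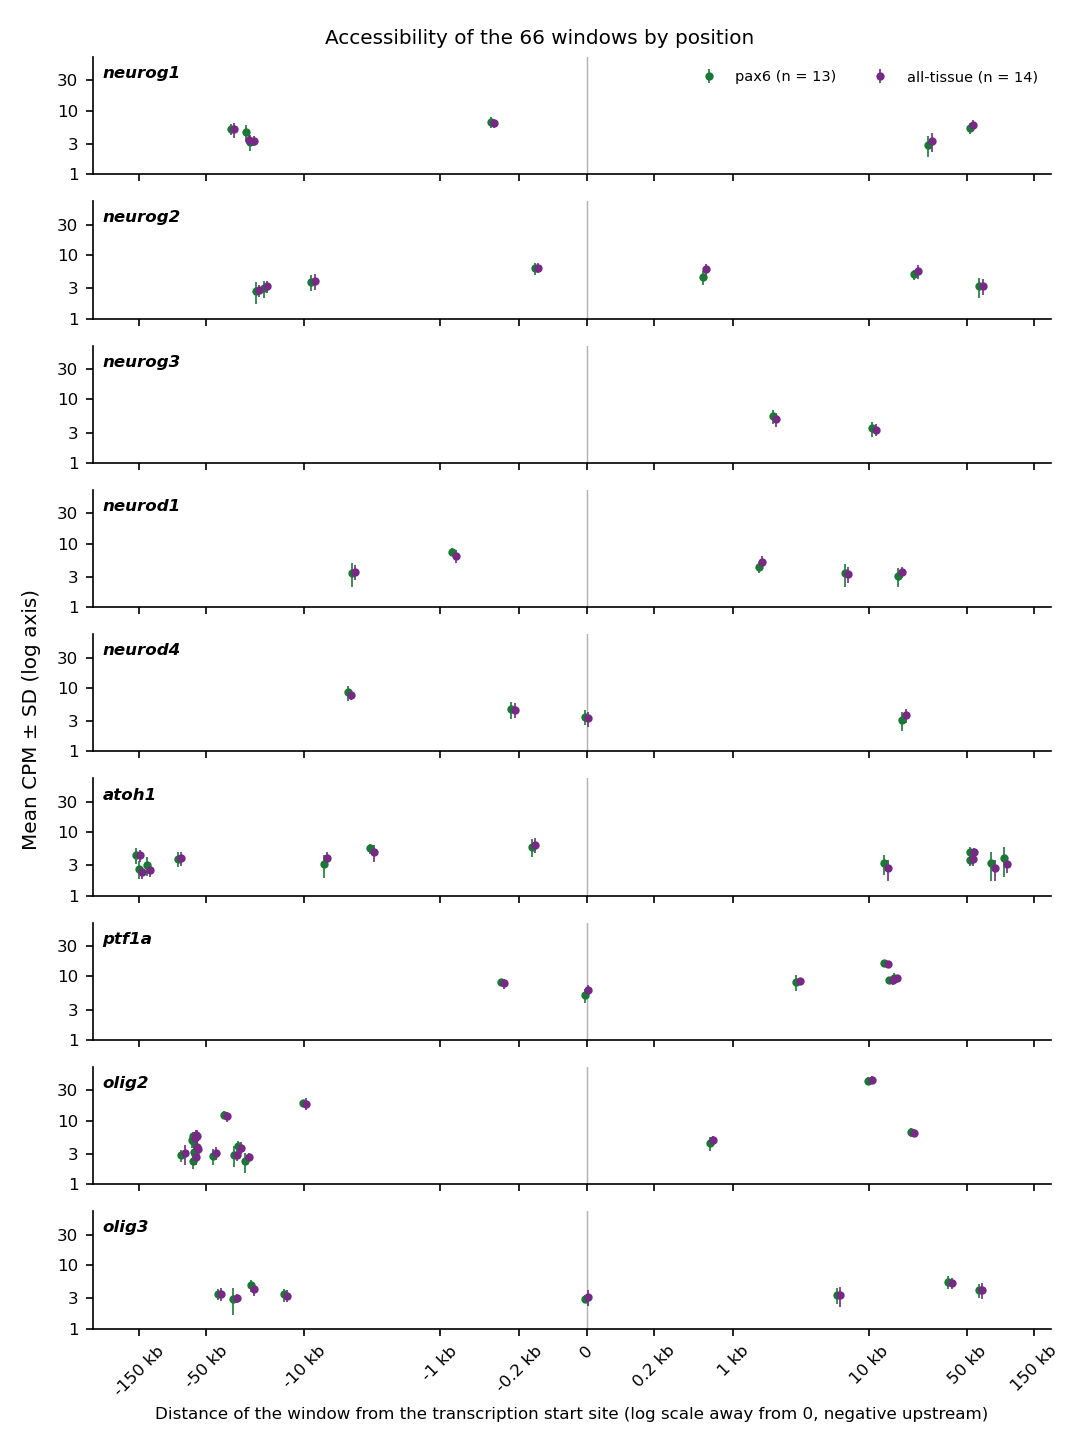
Each point is 1 of the 66 windows, with its distance from the transcription start site on the x axis (log scale away from 0, negative upstream) and its mean CPM ± SD on a log y axis, in pax6 (green, n = 13) and all-tissue (purple, n = 14) samples. The olig2 window 10174 bp downstream stands highest at 43.5 CPM, and the SD bars of both tissues overlap in all 66 windows.

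Some windows sit close together. Upstream of olig2, 6 windows filled the stretch from 58959 to 61736 bp, of which the pair at 60469 and 60809 bp overlap by 60 bp. Downstream of ptf1a, 3 windows at 13241, 14362 and 15383 bp were parted by gaps of at least 621 bp, with mean levels of 15.8, 8.70 and 9.44 CPM. The ptf1a window over the TSS (chr6:18185719-18186118) and the one 294 bp upstream overlap by 49 bp. Overlapping windows hold some of the same reads and are not independent measurements.

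Whether the GFP+ cells differ from the tail cells sorted without a GFP gate at these genes was asked first over all timepoints. No window of the 66 was called by edgeR's quasi-likelihood test with a Benjamini-Hochberg adjusted p under 0.05, where 1.52% of all 124342 windows were (795 higher and 1100 lower in pax6). At an unadjusted p under 0.05 there were 6 of 66 (9.09%, 2 higher and 4 lower) against 14.5% of all windows. DESeq2 and edgeR's likelihood ratio test called 0 of the 66 as well, where they called 2% and 2.77% of all windows. The log2 fold changes of pax6 over all-tissue ran from -0.39 to 0.33 with a median of -0.02 (all windows 0.00), and 31 of 66 were above 0. The 95% intervals lay between -0.64 and 0.68, so that a 2-fold difference lay outside the interval of all 66 windows and a 1.5-fold difference outside that of 60. In none of the 66 did all pax6 samples lie on one side of all all-tissue samples, as they did in 0.0354% of all windows.

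**Figure D2:**
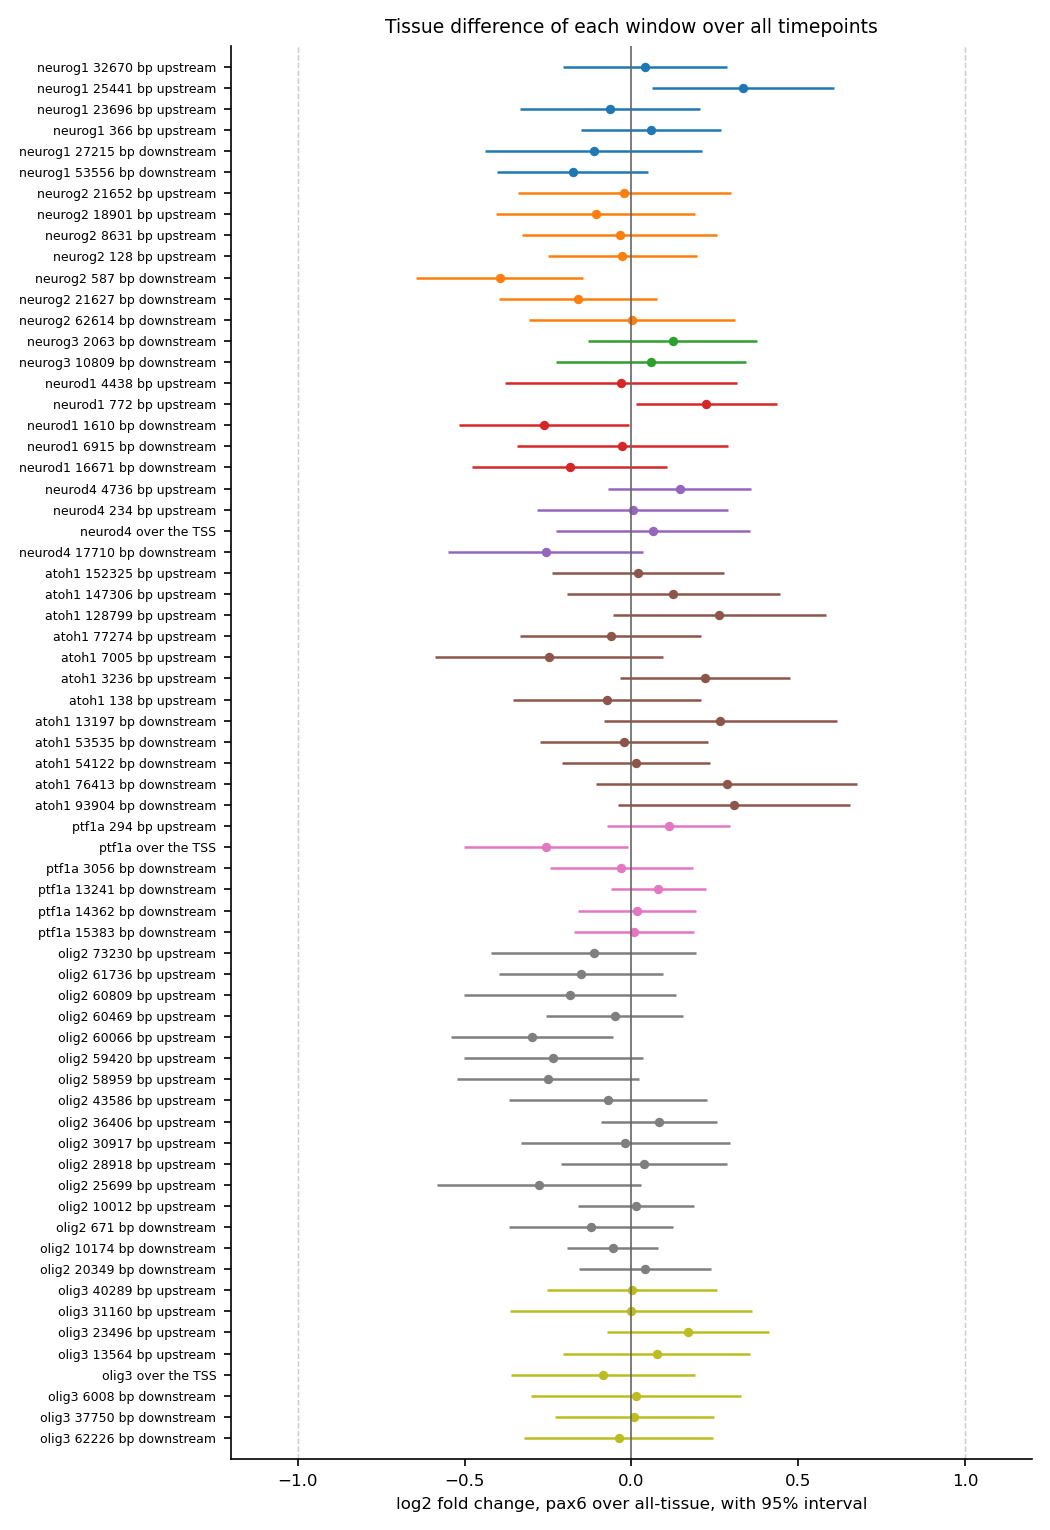
For each of the 66 windows, ordered by gene and position, the point gives the log2 fold change of pax6 (n = 13) over all-tissue (n = 14) over all timepoints and the bar its 95% interval, with dashed lines at 2-fold. The neurog2 window 587 bp downstream lies lowest at -0.39, and every bar stays within the dashed lines.

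Counting error made up much of the spread in most of the 66 windows. The median coefficient of variation within groups was 22.8%, and counting alone would give 20.3%. The ratio of both ran from 0.783 to 1.93. It was highest at the olig2 window 10012 bp upstream (1.93) and the atoh1 window 138 bp upstream (1.91). The olig2 window 10174 bp downstream (1.78) followed, with the atoh1 windows 76413 bp (1.77) and 93904 bp downstream (1.76) close to it. The standard error of a tissue difference had a median of 0.13 on the log2 scale, from 0.07 for the olig2 window 10174 bp downstream to 0.19 for the atoh1 window 76413 bp downstream.

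Within single timepoints no window of the 66 was called either, by edgeR's quasi-likelihood test, its likelihood ratio test or DESeq2. The share of all windows called by the first was 0.0129% in uninjured tails, 0.00724% at 0hpa, 0.0844% at 6hpa, 0.041% at 24hpa and 0.369% at 72hpa. The likelihood ratio test called 0.0651%, 0.0169%, 0.231%, 0.216% and 1.06% of all windows in the same order, and DESeq2 0.0322%, 0.00965%, 0.117%, 0.0418% and 0.225%. At an unadjusted p under 0.05 the counts were 2 of 66 in uninjured tails (all windows 7.3%), 8 at 0hpa (5.74%), 4 at 6hpa (9.13%), 3 at 24hpa (6.99%) and 11 at 72hpa (11.3%). The samples of both tissues did not overlap in 13 windows in uninjured tails (23.3% of all windows), 23 at 0hpa (34.8%), 6 at 6hpa (14.8%), 10 at 24hpa (12.9%) and 8 at 72hpa (15.5%). With 2 or 3 samples a side these intervals were wide, and a 2-fold difference lay outside them in 43 windows at 0hpa and 56 at 24hpa.

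Change over time was then asked within each tissue, since the study follows progenitors from injury to outgrowth. No window of the 66 was called by edgeR's quasi-likelihood test of all timepoints together, in pax6 (all windows 0.000804%) or in all-tissue (0.105%), and none was called in the test of whether the change differed between the tissues (0.00402%). At an unadjusted p under 0.05 there were 4 of 66 in pax6 (all windows 7.44%), 9 in all-tissue (7.58%) and 2 for the difference (6.64%). DESeq2 and edgeR's likelihood ratio test called 0 of the 66 in each of these 3 tests too. Of all windows, DESeq2 called 0.0185%, 0.191% and 0.0185% in pax6, in all-tissue and for the difference, and the likelihood ratio test 0.0611%, 0.861% and 0.0812%. Between flanking timepoints and between 72hpa and uninjured tails, the 8 contrasts gave 0 called windows of the 66 by these tools. The shares of all windows called by the quasi-likelihood test were 0% in the 4 pax6 contrasts and in all-tissue from uninjured to 6hpa and from 6hpa to 24hpa, 0.000804% from 24hpa to 72hpa in all-tissue and 0.109% between 72hpa and uninjured all-tissue samples. Over the 8 contrasts DESeq2 called 0% to 0.0869% and the likelihood ratio test 0.00161% to 0.425%. Without replicate 1 of uninjured pax6, the quasi-likelihood test called 1411 windows of all from uninjured to 6hpa and 1783 between 72hpa and uninjured in pax6, and 453 over all timepoints in pax6, and none of them was one of the 66. At an unadjusted p under 0.05 the pax6 contrasts gave 3 of 66 from uninjured to 6hpa (all windows 7.32%), 3 from 6hpa to 24hpa (7.71%), 3 from 24hpa to 72hpa (7.14%) and 7 between 72hpa and uninjured (8.55%). The all-tissue contrasts gave 2 (4.67%), 5 (4.38%), 2 (3.99%) and 3 (8.16%) in the same order.

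**Figure D3:**
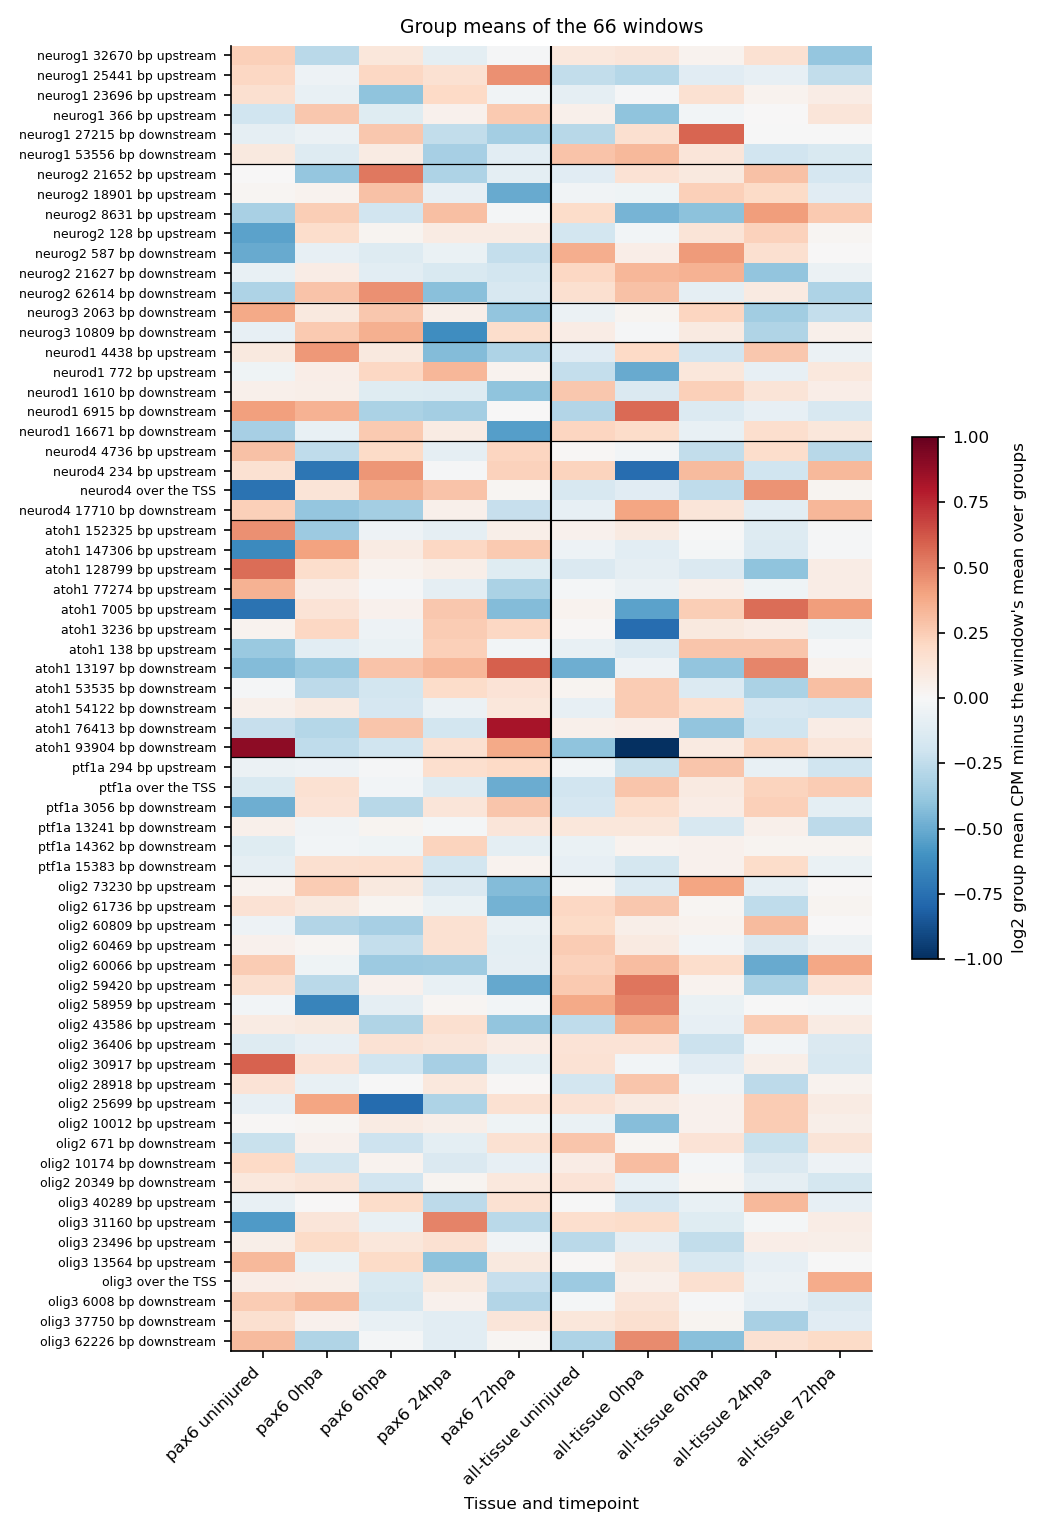
Rows are the 66 windows by gene and position, columns the 10 groups of tissue and timepoint (n = 2 or 3), and the colour gives the log2 group mean CPM minus the mean of the window over the 10 groups, cut at 1 in either direction. Of the 660 cells, 95.6% lie within 0.5 of 0 and the range is -1.02 to 0.90, with the strongest colours in the atoh1 window 93904 bp downstream.

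The neurogenins, which act early in the cascade, are described first. Nearest to the neurog1 TSS was the window 366 bp upstream (chr3:16392353-16392752), which spanned 4.41 to 9.46 CPM in pax6 (median 6.90) and 4.51 to 8.04 CPM in all-tissue (median 6.37). The ranges overlap almost wholly, and the log2 fold change was 0.06 ± 0.11 (SE). The largest tissue difference of neurog1 lay 25441 bp upstream (chr3:16367278-16367677), at a median of 4.07 CPM in pax6 (2.44 to 8.10) and 3.61 CPM in all-tissue (2.43 to 4.54). Its log2 fold change was 0.33 ± 0.14 (SE, edgeR quasi-likelihood test, Benjamini-Hochberg adjusted p = 0.213). The highest value, 8.10 CPM, came from replicate 3 of pax6 72hpa, and without that library the log2 fold change was 0.24 (edgeR adjusted p = 0.376). In all-tissue, the window 27215 bp downstream was at 2.29, 2.43 and 2.94 CPM in uninjured tails and at 3.73, 3.87 and 6.29 CPM at 6hpa. These do not overlap, yet the edgeR adjusted p of the log2 fold change of 0.85 was 1.00, and 11.8% of all windows were separated as fully.

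For neurog2, which drives motor and sensory neuron differentiation in the mouse, the windows on either side of the TSS gave different values. The window 128 bp upstream (chr1:59434133-59434532) spanned 2.30 to 7.71 CPM in pax6 (median 6.34) and 5.13 to 8.58 CPM in all-tissue (median 6.15), with a log2 fold change of -0.03. The window 587 bp downstream (chr1:59433017-59433416), 716 bp from the first, spanned 2.56 to 5.87 CPM in pax6 (median 4.62) and 3.85 to 8.33 CPM in all-tissue (median 5.73). Means were 4.47 ± 1.12 CPM in pax6 (SD, n = 13) and 5.94 ± 1.28 CPM in all-tissue (SD, n = 14). Its log2 fold change of -0.39 ± 0.12 (SE) had the smallest p of the 66 and an adjusted p of 0.0891 in edgeR's quasi-likelihood test. The groups overlap, and the window was not called. Leaving out each sample in turn gave log2 fold changes from -0.45 to -0.35 and a lowest adjusted p of 0.0533. As the mean of the contrasts of the 5 timepoints, the log2 fold change was -0.39 (edgeR adjusted p = 0.102, with 1.81% of all windows called). Without replicate 1 of uninjured pax6, which leaves the sample at 2.56 CPM alone in its group, it was -0.51.

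By timepoint, this window was at 2.56 and 4.62 CPM in uninjured pax6 tails and at 5.49, 6.64 and 7.50 CPM in uninjured all-tissue. These groups do not overlap, as in 23.3% of all windows, and the log2 fold change was -0.72 (edgeR adjusted p = 0.587). It was -1.33 without replicate 1 of uninjured pax6 (edgeR adjusted p = 0.176) and -0.49 without replicate 2 (edgeR adjusted p = 1.00). At 6hpa the pax6 samples were at 2.78, 5.26 and 5.87 CPM and the all-tissue samples at 5.73, 6.47 and 8.33 CPM, which overlap. At 0, 24 and 72hpa the groups overlapped, with pax6 at 4.39 and 5.22, at 4.05, 4.74 and 5.76, and at 3.25, 3.91 and 5.73 CPM. The all-tissue values there were 4.95 and 5.73, 4.27, 5.22 and 7.56, and 3.85, 5.13 and 6.27 CPM.

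Among the distal windows of neurog2, the one 8631 bp upstream (chr1:59442636-59443035) was at 4.02, 4.24 and 4.26 CPM in uninjured all-tissue, 2.09 and 3.25 at 0hpa, 2.49, 2.78 and 3.03 at 6hpa, 4.22, 4.32 and 6.25 at 24hpa and 3.62, 4.60 and 5.0 at 72hpa. The 0 and 6hpa samples lay below those of the other 3 timepoints. The log2 fold change from 6hpa to 24hpa was 0.85 (edgeR adjusted p = 1.00), and the test over all timepoints gave an edgeR adjusted p of 0.342. The opposite order held 21627 bp downstream (chr1:59411977-59412376), at 5.56, 7.22 and 7.46 CPM at 6hpa and 3.78, 4.09 and 4.22 CPM at 24hpa in all-tissue, a log2 fold change of -0.75 that was not called. In pax6 the window 62614 bp downstream (chr1:59370990-59371389) was at 3.03, 4.90 and 5.26 CPM at 6hpa and 2.15, 2.25 and 2.80 CPM at 24hpa, a log2 fold change of -0.87 (edgeR adjusted p = 0.484). Groups were separated in this way in 10.6% of all windows between 6hpa and 24hpa in all-tissue and in 13.9% in pax6. Of the 66 windows, 15 and 6 were.

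The third neurogenin, neurog3, which in the mouse specifies the endocrine cells of the pancreas, had the fewest windows. Nearest the TSS, 2063 bp downstream (chr7:51845471-51845870), uninjured pax6 samples were at 5.30 and 7.93 CPM and 72hpa pax6 samples at 3.22, 4.15 and 4.28 CPM. The groups do not overlap, as in 19.9% of all windows, and the log2 fold change of -0.70 had an edgeR adjusted p of 0.493. Leaving out replicate 1 or 2 of uninjured pax6 gave -1.04 (edgeR adjusted p = 0.154) or -0.46 (edgeR adjusted p = 1.00). The tissue difference there was 0.12 (edgeR adjusted p = 0.729). The other window, 10809 bp downstream (chr7:51854217-51854616), was lowest at 24hpa in pax6. It was at 3.04 and 3.33 CPM in uninjured pax6, 3.59 and 4.47 at 0hpa, 3.56, 4.63 and 4.74 at 6hpa, 1.35, 2.49 and 2.71 at 24hpa and 3.36, 3.94 and 4.15 at 72hpa. The log2 fold changes were -0.95 from 6hpa to 24hpa (edgeR adjusted p = 0.371) and 0.76 from 24hpa to 72hpa (edgeR adjusted p = 0.607). In all-tissue the same window was at 3.37, 3.61 and 3.80 CPM at 6hpa and 2.62, 2.63 and 2.95 CPM at 24hpa, also without overlap.

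The NeuroD factors, which act in differentiating neurons, had 5 and 4 windows. For neurod1 the window 772 bp upstream (chr9:57488457-57488856) spanned 4.94 to 9.26 CPM in pax6 (median 7.53) and 3.63 to 9.21 CPM in all-tissue (median 6.35). The ranges overlap almost fully, and the log2 fold change was 0.22 ± 0.11 (SE, edgeR adjusted p = 0.308). At 24hpa the pax6 samples, at 8.10, 8.25 and 9.26 CPM, lay above the all-tissue samples, at 5.38, 6.74 and 7.04 CPM, with a log2 fold change of 0.44 (edgeR adjusted p = 0.702). Of all windows, 12.9% were separated at that timepoint. The window 1610 bp downstream (chr9:57491240-57491639) lay the other way, with a log2 fold change of -0.26, which was not called. Of the 5 windows 1 was above 0 and 4 below, and their summed counts came to a log2 fold change of 0.00.

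For neurod4, a NeuroD family gene active in the early neural tube of the frog, the window over the TSS (chr2:141307013-141307412) gave the smallest p of the pax6 time contrasts. It was at 1.87 and 2.05 CPM in uninjured pax6, 3.25 and 3.91 at 0hpa, 3.76, 3.79 and 4.98 at 6hpa, 3.12, 4.35 and 4.52 at 24hpa and 2.80, 3.36 and 3.76 at 72hpa. Both uninjured samples lay below all 11 amputated pax6 samples. The log2 fold change from uninjured to 6hpa was 1.11 ± 0.34 (SE, edgeR adjusted p = 0.414) and ran from 0.96 to 1.19 with each sample left out. This was not called, and 20.6% of all windows were separated in that contrast. In all-tissue the same window was at 2.23, 3.21 and 3.32 CPM in uninjured tails and at 2.49, 2.53 and 3.24 CPM at 6hpa, which overlap.

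The neighbouring neurod4 window, 234 bp upstream (chr2:141307484-141307883) and 71 bp away, was lowest at 0hpa in both tissues. All-tissue samples were at 4.66, 5.09 and 5.27 CPM in uninjured tails, 2.20 and 2.86 at 0hpa, 4.55, 5.47 and 5.99 at 6hpa, 2.95, 3.78 and 4.44 at 24hpa and 4.75, 5.53 and 5.85 at 72hpa. The pax6 samples were at 3.63 and 5.89 CPM in uninjured tails, 1.96 and 3.25 at 0hpa, 5.05, 6.21 and 6.23 at 6hpa, 3.58, 3.90 and 5.31 at 24hpa and 4.19, 4.55 and 6.33 at 72hpa. Both 0hpa groups lay below all other samples of their tissue, and the share of all windows with this order was not counted. The test over all timepoints gave an edgeR adjusted p of 0.222 in all-tissue, the smallest of the 66 there, and of 0.616 in pax6.

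Of the dorsal interneuron determinants, atoh1 had windows out to 152325 bp upstream and 93904 bp downstream. The one nearest its TSS, 138 bp upstream (chr1:67557052-67557451), spanned 2.74 to 8.55 CPM in pax6 (median 6.50) and 3.61 to 8.87 CPM in all-tissue (median 6.46). Neither median nor range set the tissues apart, and the log2 fold change was -0.07 (edgeR adjusted p = 0.879). At 0hpa the window 3236 bp upstream (chr1:67560150-67560549) was at 4.89 and 6.83 CPM in pax6 and at 2.75 and 3.25 CPM in all-tissue. A log2 fold change of 1.08 had an edgeR adjusted p of 0.657, and 34.8% of all windows were separated with 2 samples a side. At the other 4 timepoints both tissues overlapped at this window.

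The farthest downstream atoh1 window, 93904 bp away (chr1:67462609-67463008), held both the highest and the lowest departure of a group mean among the 66. Uninjured pax6 samples were at 3.83 and 8.44 CPM and uninjured all-tissue samples at 2.23, 2.28 and 2.98 CPM. The pax6 values after amputation were 1.96 and 3.58 at 0hpa, 2.49, 2.53 and 3.60 at 6hpa, 2.49, 3.45 and 5.08 at 24hpa and 2.40, 3.36 and 7.12 at 72hpa. The all-tissue values were 1.54 and 1.72 at 0hpa, 3.48, 3.51 and 3.54 at 6hpa, 3.64, 3.78 and 4.09 at 24hpa and 3.02, 3.69 and 4.04 at 72hpa. The 2 highest values, 8.44 and 7.12, each came from 1 pax6 sample above its replicates, the second of them replicate 3 of 72hpa. In uninjured tails the log2 fold change was 1.12 ± 0.35 (SE, edgeR adjusted p = 0.386). It ran from 0.59 to 1.73 with each sample left out, and without replicate 1 of uninjured pax6, which leaves the sample at 8.44 CPM alone in its group, the adjusted p was 0.0327. In that fit 1001 of all windows were called in uninjured tails, against 16 with all samples.

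At 72hpa the atoh1 window 7005 bp upstream (chr1:67563919-67564318) was at 1.03, 2.37 and 3.91 CPM in pax6 and at 3.69, 4.32 and 5.21 CPM in all-tissue. These overlap, and the log2 fold change was -0.83 (edgeR adjusted p = 0.302). It was -1.43 without replicate 2 of pax6 72hpa (edgeR adjusted p = 0.0932) and -0.47 without replicate 1 (edgeR adjusted p = 0.639). The window 76413 bp downstream (chr1:67480100-67480499) was at 1.80, 2.71 and 2.96 CPM at 24hpa and at 3.91, 4.94 and 6.16 CPM at 72hpa in pax6. Its log2 fold change of 0.98 had an edgeR adjusted p of 0.594, and without replicate 3 of pax6 72hpa it was 0.99 (edgeR adjusted p = 0.923). In 11.5% of all windows these groups did not overlap.

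The windows of ptf1a, which with its partner selects inhibitory interneurons in the mouse dorsal cord and acts in the pancreas and retina, were the most accessible per window, at a mean of 10.5 CPM of the reads in annotated windows. Over the TSS (chr6:18185719-18186118) the pax6 samples were at 2.57, 3.08 and 6.15 CPM at 72hpa and the all-tissue samples at 5.92, 6.94 and 6.97 CPM. A single pax6 sample, at 6.15 CPM, reached the all-tissue range. It gave a log2 fold change of -0.70 ± 0.25 (SE, edgeR adjusted p = 0.236). Without replicate 2 of pax6 72hpa it was -1.22 and passed (edgeR adjusted p = 0.0494), and without replicate 3 it was -0.49 (edgeR adjusted p = 0.583). At 72hpa the fits that left out a sample called from 42 to 823 of all windows, against 459 with all samples. In uninjured tails the same window was at 4.61 and 5.4 CPM in pax6 and at 4.66, 4.81 and 5.09 CPM in all-tissue, and over all timepoints the log2 fold change was -0.26 (edgeR adjusted p = 0.320).

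The strongest ptf1a window, 13241 bp downstream, lay the other way at 72hpa. It was at 14.8, 17.9 and 18.6 CPM in pax6 and at 11.7, 13.2 and 14.7 CPM in all-tissue, with a log2 fold change of 0.37 (edgeR adjusted p = 0.276). The groups do not overlap but nearly touch, and 15.5% of all windows were separated at 72hpa. In uninjured tails it was at 14.8 and 17.8 CPM in pax6 and at 16.6, 17.3 and 17.4 CPM in all-tissue. The window 3056 bp downstream (chr6:18182319-18182718) was at 4.35 and 7.17 CPM in uninjured pax6 and at 7.31, 10.1 and 12 CPM at 72hpa. A log2 fold change of 0.67 had an edgeR adjusted p of 0.422, and without replicate 3 of pax6 72hpa it was 0.82 (edgeR adjusted p = 0.462). It was 1.18 without replicate 1 of uninjured pax6 (edgeR adjusted p = 0.0909) and 0.46 without replicate 2 (edgeR adjusted p = 1.00).

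The oligodendrocyte and motor neuron gene olig2 held both the most windows and the most accessible one. Its window nearest the TSS, 671 bp downstream (chr2:10825204-10825603), spanned 2.30 to 6.50 CPM in pax6 (median 4.56) and 2.73 to 6.40 CPM in all-tissue (median 4.91), with a log2 fold change of -0.12 (edgeR adjusted p = 0.723). The ranges are nearly the same. The window 10174 bp downstream was between 35.5 and 51.8 CPM in pax6 (median 41.5) and between 37.2 and 60.9 CPM in all-tissue (median 43.7). At 0hpa it was at 35.5 and 41.5 CPM in pax6 and at 47.4 and 60.9 CPM in all-tissue, a log2 fold change of -0.46 ± 0.16 (SE, edgeR adjusted p = 0.711) that ran from -0.64 to -0.28 with each sample left out. At 24hpa the tissues overlapped, at 36.9, 37.6 and 44.3 CPM and 37.2, 38.3 and 43.2 CPM.

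Within this upstream cluster of olig2, the window at 60066 bp (chr2:10886342-10886741) varied most with time. In all-tissue it was at 5.07, 6.02 and 7.45 CPM in uninjured tails, 5.05 and 8.02 at 0hpa, 5.22, 6.14 and 6.47 at 6hpa, 3.29, 3.78 and 4.09 at 24hpa and 6.69, 6.79 and 7.24 at 72hpa. All 3 samples at 24hpa lay below the other 11, and 11.1% of all windows were separated between 24hpa and 72hpa in all-tissue. The log2 fold change from 24hpa to 72hpa was 0.90 ± 0.22 (SE), with the smallest unadjusted p of the 66 in any contrast and an edgeR adjusted p of 1.00. It ran from 0.82 to 0.96 with each sample left out. Over all timepoints in all-tissue the edgeR adjusted p was 0.293.

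In pax6 the same window was at 5.89 and 6.65 CPM in uninjured tails, 5.04 and 5.22 at 0hpa, 3.74, 3.92 and 4.63 at 6hpa, 3.89, 4.20 and 4.29 at 24hpa and 3.95, 4.75 and 6.16 at 72hpa. The uninjured samples lay above those at 0, 6 and 24hpa, and the log2 fold change from uninjured to 6hpa was -0.60 (edgeR adjusted p = 0.609). At 6hpa all pax6 samples lay below all all-tissue samples (14.8% of all windows were separated), and over all timepoints the tissue difference was -0.30 (edgeR adjusted p = 0.212). Farther toward the gene, the olig2 window 25699 bp upstream (chr2:10851975-10852374) was at 1.25, 1.47 and 1.63 CPM in pax6 at 6hpa and at 1.87, 2.86 and 2.92 CPM in all-tissue, a log2 fold change of -0.78 (edgeR adjusted p = 0.501). At 0hpa the window 58959 bp upstream (chr2:10885235-10885634) was at 1.30 and 2.76 CPM in pax6 and at 4.29 and 4.77 CPM in all-tissue, a log2 fold change of -0.91 (edgeR adjusted p = 0.770). It was -1.77 without replicate 3 of pax6 0hpa (edgeR adjusted p = 0.807) and -0.70 without replicate 2 (edgeR adjusted p = 1.00).

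The windows of olig3, a marker of dorsal progenitors in the mouse, were weakly accessible. Over its TSS (chr5:64380331-64380730) the all-tissue samples were at 2.14, 2.43 and 2.52 CPM in uninjured tails and at 3.20, 3.85 and 4.74 CPM at 72hpa, and the pax6 samples at 3.04 and 3.33 CPM and at 2.37, 2.66 and 2.74 CPM. All all-tissue samples at 72hpa lay above the uninjured ones and all pax6 samples below. The log2 fold changes were 0.73 in all-tissue (edgeR adjusted p = 0.389) and -0.27 in pax6, and neither was called, where 16.1% and 19.9% of all windows were separated. The test of whether change over time differed between the tissues gave an edgeR adjusted p of 0.836 for this window. The window 62226 bp downstream (chr5:64442801-64443200) had the smallest p of the 66 in that test (edgeR adjusted p = 0.727). It was at 4.91 and 5.12 CPM in uninjured pax6 and at 2.68, 3.04 and 4.01 CPM in uninjured all-tissue, but at 3.25 and 3.26 CPM in pax6 and 5.54 and 5.60 CPM in all-tissue at 0hpa. The order of the tissues was opposite at these timepoints. In pax6 the window 31160 bp upstream (chr5:64349014-64349413) was at 2.94, 4.52 and 4.95 CPM at 24hpa and at 1.98, 2.38 and 2.91 CPM at 72hpa, a log2 fold change of -0.74 (edgeR adjusted p = 0.698). Without replicate 3 of pax6 72hpa it was -0.63 (edgeR adjusted p = 0.945).

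**Figure D4:**
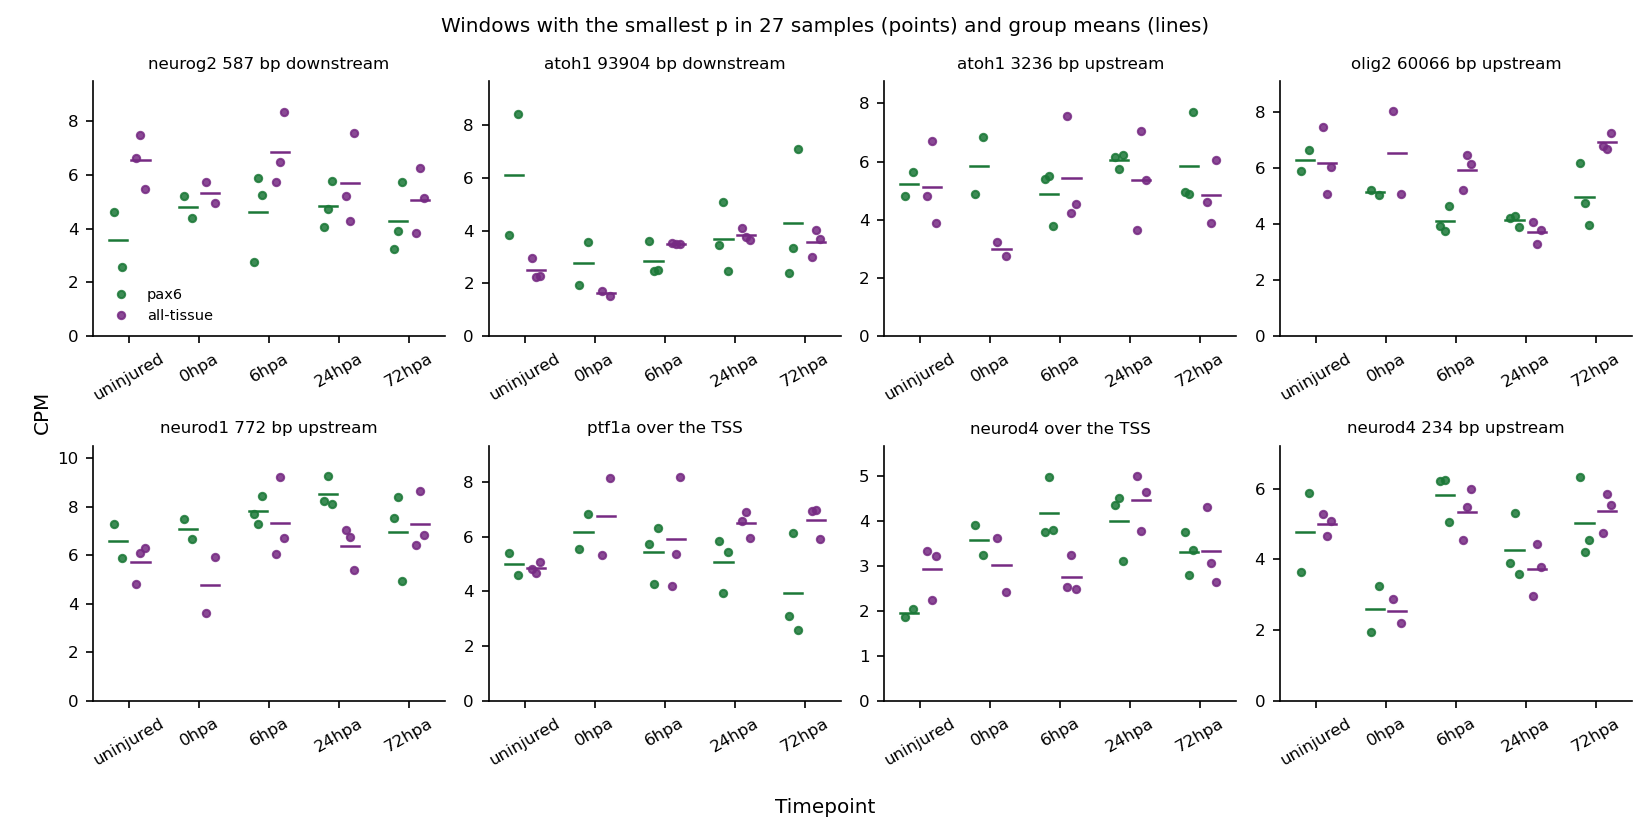
Points are the CPM of single samples at 8 windows by timepoint on the x axis, for pax6 (green, n = 2 or 3) and all-tissue (purple, n = 2 or 3), and lines are group means. The windows are those with the smallest p between the tissues over all timepoints and at each timepoint, from uninjured to 6hpa in pax6, and over time in all-tissue. The neurog2 window lies lower on average in pax6 (4.47 against 5.94 CPM), the neurod4 TSS window is lowest in the 2 uninjured pax6 samples and 1 uninjured pax6 sample at 8.44 CPM stands apart at the atoh1 window 93904 bp downstream.

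Summing the counts of all windows of a gene gave 1 level per sample, as CPM of the reads in annotated windows, and these levels were nearly the same in both tissues. No gene of the 9 was called by edgeR's quasi-likelihood test over all timepoints, where 2.73% of all 23175 genes were, and 0 of 9 had an unadjusted p under 0.05 (all genes 18.6%). The largest positive log2 fold change was that of neurog3 at 0.12 (10.1 ± 2.0 CPM in pax6, SD, n = 13, and 9.18 ± 1.75 CPM in all-tissue, SD, n = 14). The smallest p was that of atoh1, at 53.7 ± 5.98 and 50.7 ± 3.09 CPM, with a log2 fold change of 0.09 (edgeR adjusted p = 0.296). Next was neurog2, at 32.2 ± 3.59 and 34.9 ± 3.54 CPM and -0.10 (edgeR adjusted p = 0.329). The sums of olig2, at 141 ± 8.20 and 144 ± 10.9 CPM, were the highest of the 9. Its 16 windows contributed unevenly, with a median level of 4.28 CPM and 43.5 CPM in the highest (CPM of the reads in all windows). On the log2 scale, the intervals of olig2 (-0.11 to 0.04) and ptf1a (-0.05 to 0.11) were the narrowest of the 9. That of neurog3 (-0.09 to 0.33) was the widest. All 9 genes together held 0.0365% ± 0.000785 of the counts in pax6 (SD, n = 13) and 0.0367% ± 0.000655 in all-tissue (SD, n = 14).

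Across the 10 groups of tissue and timepoint, the highest group mean of a gene was 1.15 to 1.59 times the lowest. Ordered by mean, 7 genes had no pair of neighbouring groups whose samples failed to overlap, and neurod4 and ptf1a had 1 such pair each of 9. Of all 23175 genes, 16.9% had at least 1 such pair. The widest range was that of neurog3, from 11.9 ± 1.5 CPM in pax6 at 6hpa to 7.49 ± 1.80 CPM in all-tissue at 24hpa (SD, n = 3 each). Its log2 fold changes from 6hpa to 24hpa were -0.48 in pax6 (edgeR adjusted p = 0.521) and -0.47 in all-tissue (edgeR adjusted p = 0.995), contrasts in which 0% of all genes were called. For neurog2 the uninjured pax6 samples, at 27.8 ± 5.47 CPM (SD, n = 2), had the lowest mean and the all-tissue samples at 6hpa, at 36.6 ± 4.09 CPM (SD, n = 3), the highest. For olig2 the highest group was all-tissue at 0hpa, at 158 ± 14 CPM (SD, n = 2), and the lowest all-tissue at 24hpa, at 135 ± 4.06 CPM (SD, n = 3). No gene of the 9 was called between the tissues within a timepoint by edgeR's quasi-likelihood test (all genes 0.0388% in uninjured tails, 0.0518% at 0hpa, 0.121% at 6hpa, 0.069% at 24hpa and 0.587% at 72hpa). Over time none was called in pax6 (0.00431%), in all-tissue (0.423%) or for the difference between them (0.00863%), and at an unadjusted p under 0.05 each of these 8 tests gave 0 or 1 of the 9. The shares of all genes at that limit were 8.59%, 6.87%, 10.6%, 9.2% and 13.9% within the 5 timepoints in order, 8.69% over time in pax6, 11.2% in all-tissue and 8.21% for the difference. Replicate 3 of pax6 72hpa moved some means there, and neurod1 was at 17.4 CPM in it against a mean of 23.7 CPM in the other 2 samples, while atoh1 was at 63.5 against 53.4 CPM.

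**Figure D5:**
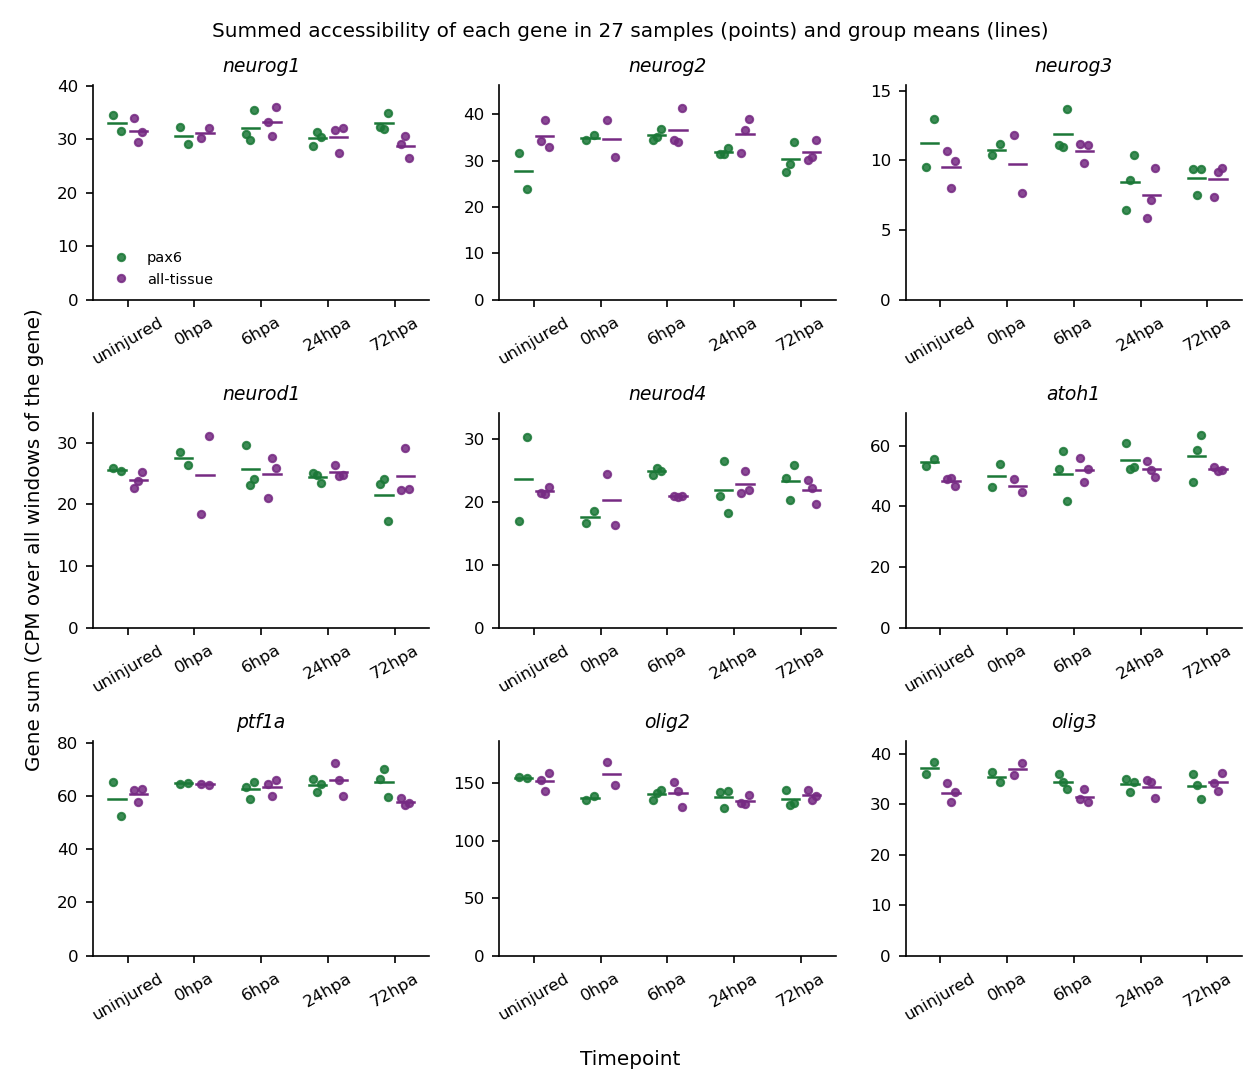
Points are the CPM summed over all windows of each of the 9 genes in single samples, by timepoint, for pax6 (green, n = 2 or 3) and all-tissue (purple, n = 2 or 3), and lines are group means, with y axes that start at 0. The highest group mean exceeds the lowest by 1.15 to 1.59 times, and points of the tissues mix at most timepoints.

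As a description of likeness, the summed log2 CPM of each gene was correlated over the 27 samples with that of 14277 genes with at least 3 windows (14278 for neurog3). The closest were LOC100497239 (Pearson r = 0.849), LOC100492396 (0.844) and psmb3 (0.826) for olig2, slx4ip (0.763) for atoh1 and gjb5 (0.703) for neurog2. For neurod1 it was nrf1-like (0.740), for ptf1a ttc29-like (0.735) and for neurog1 LOC101731300 (0.673). For neurog3, neurod4 and olig3 the closest genes carried only a model name of the annotation, with r of 0.732, 0.718 and 0.696. The median r over all genes was between -0.03 and 0.02. The points share libraries and depth, and the closest of so many genes is high by selection. None of the 9 was among the 3 closest genes of another.

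The genes around this network were compared between the tissues over all timepoints in the same fit. Among bHLH partners and inhibitors, 2 of 71 windows (2.82%, with 1.52% of all windows called and 0.885% called lower, and with 6 of 7 genes having windows) were called, both lower in pax6 and both nearest to id2, whose protein binds E proteins and blocks their binding to DNA. Over the id2 TSS the level was 6.79 ± 2.46 CPM in pax6 (SD, n = 13) and 10.4 ± 2.30 CPM in all-tissue (SD, n = 14), a log2 fold change of -0.60 (edgeR adjusted p = 0.0135), and it passed with each of the 27 samples left out. The second id2 window, 195482 bp upstream, was at 4.30 ± 1.07 and 5.82 ± 1.13 CPM, with a log2 fold change of -0.43 (edgeR adjusted p = 0.0445), and it passed in 12 of the 27 fits that left out a sample, with adjusted p-values up to 0.0891 without replicate 3 of all-tissue 24hpa, and not with the 23 libraries of the deposited comparisons (edgeR adjusted p = 0.0908). Other id2 windows had an unadjusted p under 0.05 in edgeR without being called. Those 11040 bp upstream (-0.50), 147399 bp upstream (-0.43) and 2154 bp downstream (-0.36) were lower in pax6, and that 179171 bp upstream was higher (0.27). The smallest p on the higher side was at tcf4, which encodes an E protein, 2583 bp upstream, with a log2 fold change of 0.30 (edgeR adjusted p = 0.0670). At epidermis markers 3 of 38 windows were also called lower in pax6, while the median log2 fold change of the 38 was -0.02. The part of such cells in the id2 difference was not tested.

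Among genes downstream of neurogenins in neuron differentiation, 1 of 111 windows was called, a share of 0.901% (10 of 15 genes had windows). It lay 1712 bp upstream of elavl3, a neuronal RNA-binding protein and marker of differentiated neurons, at 3.17 ± 0.687 CPM in pax6 (SD, n = 13) and 2.07 ± 0.769 CPM in all-tissue (SD, n = 14). On the log2 scale the difference was 0.59 (edgeR adjusted p = 0.0491). It passed in 8 of the 27 fits that left out a sample, with adjusted p-values up to 0.0862 without replicate 2 of pax6 6hpa. DESeq2 gave this elavl3 window no adjusted p, so that it was not called there. No window was called of 41 at other neural bHLH factors (8 of 11 genes), of 27 at oligodendrocyte lineage genes (5 of 9) or of 88 at dorsal interneuron genes (9 of 10). The smallest p-values there were those of bhlhe22 at 228 bp downstream (log2 fold change -0.36) and olig1 upstream (0.34), of mbp, a myelin protein, at 84432 bp upstream (-0.43), and of barhl1, a target of Atoh1 in the mouse, at 1550 bp upstream (0.52). On the lower side of the dorsal interneuron genes, the smallest p was at lhx2, 125599 bp downstream (-0.22). Medians over these 5 lists ran from -0.04 to 0.03, against 0.00 over all windows, and no window of them was called in the tests over time.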

How the data were processed

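ATAC-Seq libraries of GFP+ cells (pax6) and of tail cells sorted without a GFP gate (all-tissue) were read from 1 table of whole-number counts per window. The authors named Trim Galore, Bowtie2, SAMtools, MACS2 and featureCounts, with versions not given in the sources used here. As deposited, the counts are raw reads per 400 bp window around summits called by the authors on merged alignments (genome version 9.0), in which each summit carries a −log10 score from the peak caller that was not used for any test. The nearest gene and its distance came from the deposited annotation table. The deposited comparison tables hold the results of earlier tests by the authors and were not used, and 0 other columns of per-sample values were set aside.

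Counts of second libraries with the title of replicate 1 were summed with it. A figure of the study places the 72hpa one with replicate 2, which was tried as an alternative. Libraries of pax6 0hpa replicate 1 and pax6 uninjured replicate 3, with totals of 11 and 143 counts, were left out (minimum 100000). This left 13 pax6 and 14 all-tissue samples. A window had to reach 1 CPM in 2 samples or more, TMM factors were computed, and quasi-likelihood F tests were run in edgeR 4.0.16 (limma 3.58.1, R 4.3.3) across all windows, with Benjamini-Hochberg adjustment over all of them and calls at an adjusted p under 0.05. The tissue comparison over all timepoints used 2 groups, and all others used 10 groups of tissue and timepoint that share 1 estimate of spread. The same tests were run on counts summed per nearest gene, of which those with 10 groups were added after the data were seen. The SE is the log2 fold change over the root of F and is not given where F was below 1e-06. CPM values in the text use TMM-scaled totals, and intervals have a confidence level of 95%. By the paper, duplicate reads were removed from the alignments. Counting error takes the remaining reads as independent, which was not tested.

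The text describes the window nearest the TSS of each gene and most of the 3 windows with the smallest p in each comparison, together with the windows of highest and lowest level. Chosen by the smallest p but not described were windows of neurog1 (53556 bp downstream), neurog2 (21652 bp upstream) and olig3 (40289 bp upstream). The same holds for atoh1 windows 147306 bp upstream and 53535 bp downstream, and the ptf1a window 15383 bp downstream is described only by its level. The 9 genes and the lists of partners, targets and markers were chosen with earlier results of these data known, and lists are described by counts only. Alternatives were DESeq2 1.42.0, edgeR's likelihood ratio test, RLE size factors, no filter, the 23 libraries that the deposited comparisons used, a replicate block, 1 tissue at a time, an unadjusted p under 0.01 and leaving out each sample. Scripts were tested on simulated data. Figures were drawn with matplotlib 3.10.9 in Python 3.11.15. No sequence is printed, since no genome of the build of the files was used here.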

Additional observations from a re-analysis of the deposited data

Results flagged for a closer look

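In the 4 contrasts between timepoints that were tested in each tissue, 2 of the 66 windows moved in opposite directions in 1 contrast each, with no overlap between the timepoints compared in either tissue. At the other timepoints their samples overlapped the uninjured ones in at least 1 tissue, except that at 0hpa both tissues lay below them at the atoh1 window. The change from uninjured tails to 0hpa was not among these contrasts. From uninjured to 6hpa, 20.6% of all windows were separated in pax6 and 11.8% in all-tissue. Between 72hpa and uninjured, 19.9% and 16.1% were. How many of all windows were separated in opposite directions was not counted, so the 2 windows are not set apart from the rest. The atoh1 window 93904 bp downstream was at 3.83 and 8.44 CPM in uninjured pax6 tails and at 2.49, 2.53 and 3.60 CPM at 6hpa, a log2 fold change of -0.93, whereas all-tissue samples were at 2.23, 2.28 and 2.98 CPM and at 3.48, 3.51 and 3.54 CPM, a log2 fold change of 0.46. The difference between the changes was -1.39. The test of all tissue-by-time contrasts together gave an edgeR adjusted p of 0.738, and without replicate 3 of pax6 72hpa 0.512. Leaving out replicate 1 of uninjured pax6 moved the pax6 change to -1.53 (edgeR adjusted p = 0.0555), and leaving out replicate 2 moved it to -0.40 (edgeR adjusted p = 1.00).

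The olig3 window over the TSS was at 3.04 and 3.33 CPM in uninjured pax6 tails and at 2.37, 2.66 and 2.74 CPM at 72hpa, a log2 fold change of -0.27, and in all-tissue at 2.14, 2.43 and 2.52 CPM and at 3.20, 3.85 and 4.74 CPM, a log2 fold change of 0.73. The difference between the changes was -1.0. The test of all tissue-by-time contrasts together gave an edgeR adjusted p of 0.836.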

How the results depend on the processing

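None of the 66 windows was called in any comparison with DESeq2, edgeR's likelihood ratio test, RLE size factors, no filter, the 23 libraries of the deposited comparisons, the second 72hpa all-tissue library with replicate 2, or 1 tissue at a time. Leaving out each sample gave counts from 0 to 1 for the tissue comparisons within timepoints. The 1 window was that of atoh1 93904 bp downstream in uninjured tails (0 to 1) without replicate 1 of uninjured pax6, and that over the TSS of ptf1a at 72hpa (0 to 1) without replicate 2 of pax6 72hpa. The counts of the other comparisons stayed at 0, except that the neurog2 window 587 bp downstream passed in the mean of 5 timepoint contrasts without replicate 1 of uninjured pax6. Fits without that replicate leave 1 uninjured pax6 sample in its group. At 72hpa the fits that left out a sample called 42 to 823 of all windows. Leave-one-out log2 fold changes were taken for the windows nearest the TSS and those with the 3 smallest p of a comparison, described or not. They moved by over 1.5 times in 6 of 12 cases over all timepoints, where the neurog2 window 128 bp upstream crossed 0 (-0.06 to 0.03). In single timepoints or between them they did so in 11 of 39 cases, with no change of direction there. An unadjusted p under 0.01 gave 1 window of the 66 between the tissues over all timepoints (5.96% of all windows), 4 within timepoints (1 in uninjured tails, 2 at 0hpa and 1 at 72hpa, with 2%, 1.3% and 3.96% of all) and 3 over time in all-tissue (2.49%). It gave 1 from uninjured to 6hpa (1.91%), 2 from 6hpa to 24hpa (2.05%) and 1 between 72hpa and uninjured (2.27%) in pax6, and 3 from 6hpa to 24hpa (0.807%) and 1 from 24hpa to 72hpa (0.659%) in all-tissue. With the 23 libraries the log2 fold changes of pax6 over all-tissue near the start sites of neurog1 (366 bp upstream) and atoh1 (138 bp upstream) turned from 0.06 to -0.000185 and from -0.07 to 0.000397, and the cause was not tested. What samples with the same replicate number share beyond it is not given by the labels. Over 12 pairs the correlation of deviations ran from -0.096 to 0.0737, and 0 were over 0.1. Yet 23 of 27 samples correlated more with their own number on average, and a shared preparation was not tested. The fit with a replicate block called 0 of the 66 in every comparison, and the neurog2 window 587 bp downstream was at -0.40 with that block. Of all windows it called 528 over time in all-tissue, against 131 without the block. Between the tissues over all timepoints it called 1836, against 1895 without it. Outside the 66, the block left the distal id2 window and the elavl3 window at edgeR adjusted p-values of 0.0514 and 0.0504. Depth limits these windows: 5 of 66 had a lowest count under 5 reads in a sample, and single timepoints with 2 or 3 samples a side left a 2-fold difference inside the interval of 10 to 23 windows between the tissues.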
